A study of Mus musculus with 6 samples.

Results

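The genes described here are 9 genes of plasminogen activation and blood coagulation, *Plau*, *Plaur*, *Serpinb2*, *Thbs1*, *F3*, *F10*, *Procr*, *Thbd* and *Tfpi*, picked by gene symbol from the 24786 symbols measured. They were read in Raw264.7 cells, a mouse macrophage line that was established from a tumor induced by Abelson murine leukemia virus. The sample labels give the strain as C57BL/6, which the paper names for its mice and not for this line. The cells carried either a control shRNA (sh-NC, 3 libraries) or an shRNA against *Etv5*, an ETS-family transcription factor (sh-*Etv5*, 3 libraries). By the study's methods, shRNA was delivered with lentivirus. The labels name 24 or 48 h after infection without tying a library to either time, and they also name a transfection reagent. The study describes the sequenced cells as stably transfected. Its methods keep Raw264.7 cells infected with lentivirus in puromycin, at a concentration raised during passage. Neither the shRNA used for sequencing nor the number of separate infections is given in the sources used here, so each p-value measures only the spread between these libraries, which may be technical. The comparison asks how the RNA level of each gene differed when *Etv5* was knocked down.

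Plasmin is the protease that dissolves fibrin, and it is cut from plasminogen by the urokinase that *Plau* encodes. Urokinase binds to its receptor on the cell surface, encoded by *Plaur*, and is blocked by inhibitors such as PAI-2 (*Serpinb2*). Coagulation starts when tissue factor (*F3*) meets factor VII, and the cascade passes through factor X (*F10*) to thrombin. It is held back by tissue factor pathway inhibitor (*Tfpi*) and by the protein C pathway, in which thrombomodulin (*Thbd*) and the endothelial protein C receptor (*Procr*) present protein C to thrombin. Activated macrophages are known to carry urokinase, its receptor and, in many settings, tissue factor.

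Of the 9 genes, 3 were measured at a clear level and all 3 differed between the groups, in different directions. *Procr* rose 39.0-fold by the ratio of its mean RPKM values, *Plaur* rose 2.95-fold, and *Plau* fell by 49.96%, where RPKM is the read count scaled to the length of the gene and to the mapped reads of the library. The other 6 genes stayed below 1 RPKM in every library. They include *F3*, the starter of coagulation, which did not exceed 0.139 RPKM. The filter for testing was at least 1 RPKM in at least 3 libraries, which 10738 genes passed. With limma on log2(RPKM + 1) and Benjamini-Hochberg adjusted p-values under 0.05, 33.3% of these genes were called higher and 41.0% were called lower in sh-*Etv5* cells. A call in either direction was therefore common, and 2 members called higher and 1 called lower is not by itself a result about this group of genes.

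RPKM summed to between 320462 and 322949 in the sh-NC libraries and between 330454 and 340257 in the sh-*Etv5* libraries, without overlap. The number of genes above 0 RPKM was also higher with sh-*Etv5*, at 15239 to 15544 against 14691 to 14824. Pearson's r of log2(RPKM + 1) across the tested genes was 0.996 to 0.997 within a group and 0.913 to 0.915 between groups, where genes are not independent replicates. The number of reads is unknown, so no counting interval is given. The knockdown target *Etv5* read 9.18, 9.89 and 9.39 RPKM with sh-NC against 5.19, 4.91 and 5.28 RPKM with sh-*Etv5*, in the order of the replicate numbers, as for all values listed here, and 24.5% of the 50-base sequences of its transcripts also occur in *Gm4798*. Of the 8 macrophage markers read, 7 passed the filter, and *Mertk* stayed near 0. These 7 were called in different directions, with *Lyz2*, *Csf1r*, *Cd68* and *Fcgr1* lower and *Itgam*, *Adgre1* and *Spi1* higher in sh-*Etv5* cells. The summed level of the list was 3837 to 3942 RPKM with sh-NC and 2829 to 2909 RPKM with sh-*Etv5*, most of it from *Lyz2*. In bulk RNA, fewer cells expressing a gene cannot be told apart from less RNA per cell.

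*Plau* (GRCm38 chromosome 14, 20836660 to 20843385, plus strand) encodes urokinase, the enzyme that activates plasminogen, and was the most abundant of the 9 genes in both groups. Its sh-NC libraries read 186, 188 and 186 RPKM, and its sh-*Etv5* libraries 95.7, 92.4 and 92.2 RPKM. Every sh-*Etv5* library was below every sh-NC library. The means were 186.7 ± 1.00 and 93.4 ± 1.997 RPKM (SD, n = 3), which gave a log2 fold change, sh-*Etv5* over sh-NC, of -0.99 (standard error, SE, 0.0314; 95% confidence interval -1.06 to -0.92, limma adjusted p = 3.43e-10). *Plau* lost level without leaving the top of the distribution. Its sh-NC mean exceeded that of 99.1% of all gene symbols, and its sh-*Etv5* mean exceeded that of 97.6%. A fall at least as large on the log2 scale was seen in 332 of the tested genes, or 3.09%, *Plau* included.

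*Plaur* (chromosome 7, 24462484 to 24475968, plus strand) encodes the urokinase receptor, which holds the enzyme at the cell surface. Its level was 22.0, 20.1 and 19.96 RPKM with sh-NC and 61.2, 59.3 and 62.5 RPKM with sh-*Etv5*. The groups did not overlap, and the ratio of a sh-*Etv5* library to a sh-NC library ran from 2.69 to 3.13. The mean rose from 20.7 ± 1.15 to 61.0 ± 1.63 RPKM (SD, n = 3), equal to 1.52 on the log2 scale (SE 0.0456, 95% confidence interval 1.42 to 1.62, limma adjusted p = 2.33e-10). Rises of this size or more were found in 302 tested genes, or 2.81%.

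The enzyme and its receptor thus moved in opposite directions, and their proportion shifted within each library. The RPKM of *Plau* was 8.44, 9.34 and 9.34 times that of *Plaur* in the sh-NC libraries and 1.56, 1.56 and 1.47 times that of *Plaur* in the sh-*Etv5* libraries. These ratios compare levels per kilobase of gene and share each library's scaling, which cancels within a library.

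*Procr* (chromosome 2, 155751117 to 155755471, plus strand) encodes the endothelial protein C receptor, a cell surface receptor that promotes activation of the anticoagulant protein C. It was already above 1 RPKM in every sh-NC library, with 1.502, 1.88 and 1.86 RPKM, and its sh-*Etv5* libraries read 67.6, 70.6 and 66.6 RPKM. No other member differed as widely, and the lowest sh-*Etv5* library was 35.4 times the highest sh-NC library. The means were 1.75 ± 0.214 and 68.2 ± 2.06 RPKM (SD, n = 3). On the log2(RPKM + 1) scale, which understates the change of a gene that is low in one group, the fold change came to 4.66 (SE 0.0614, 95% confidence interval 4.52 to 4.79, limma adjusted p = 2.61e-13). That value ranked 18 among the rises of the 10738 tested genes. *Procr* went from a level above 60.6% of all gene symbols to one above 96.6% of them.

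**Figure D1:**
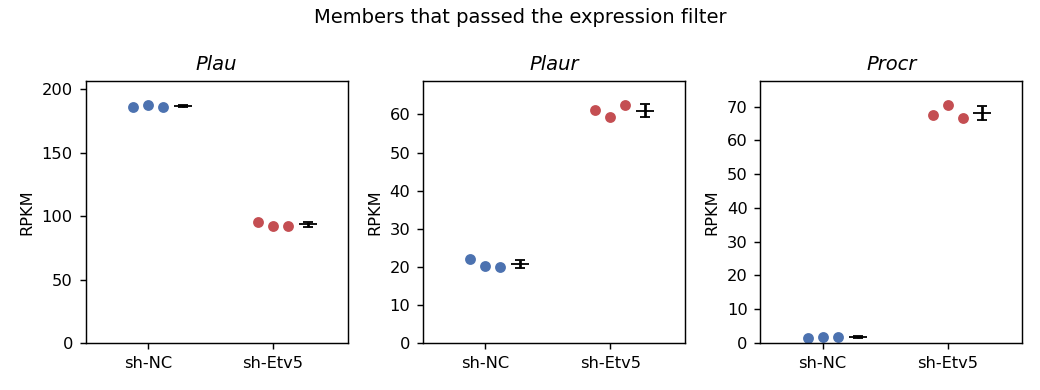
RPKM (linear axis from 0) of *Plau*, *Plaur* and *Procr* in the 3 sh-NC (blue) and 3 sh-*Etv5* (red) libraries, with each group's mean and SD in black beside its points. *Plau* sits at 186 to 188 RPKM with sh-NC and 92.2 to 95.7 RPKM with sh-*Etv5*, whereas *Plaur* and *Procr* have all sh-*Etv5* points above all sh-NC points.

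The order of the members by level differed between the groups. In sh-NC cells it ran *Plau*, *Plaur*, *Procr*, *F10*, and the libraries of each of these genes were separate from those of the next. In sh-*Etv5* cells *Procr* stood above *Plaur*, with 66.6 RPKM in its lowest library against 62.5 RPKM in the highest library of *Plaur*, and *Tfpi* came next. The lower neighbors in each order overlapped in their libraries and were not distinguishable.

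Set among all tested genes, the 3 members lay in different parts of the distribution, as the plot of fold change against mean level shows. For each of them, the 2 genes outside the members with the most similar profile over the 6 libraries were found by the root mean square difference of log2(RPKM + 1), centred on the sh-NC mean. For *Procr* they were *Socs3*, a feedback inhibitor of cytokine receptor signaling (root mean square difference 0.0677), and *Edn1*, which encodes the peptide endothelin-1 (0.0755). *Socs3* rose from 1.74 ± 0.217 to 71.0 ± 1.97 RPKM, and *Edn1*, which passed the filter through its sh-*Etv5* libraries alone, from 0.0521 ± 0.0510 to 25.1 ± 1.03 RPKM (SD, n = 3). The nearest profiles to *Plaur* were those of *Nfkbib*, an inhibitor of NF-κB (0.0229), and *Sars*, a seryl-tRNA synthetase (0.0309), and those nearest to *Plau* were *H2afx*, a histone variant (0.0230), and *4933404O12Rik* (0.0264). *Edn1*, *Nfkbib* and *H2afx* have exons that share positions with antisense genes, and whether the authors counted by strand is not given in the sources used here. With only 6 libraries in 2 groups, many genes with a similar fold change lie at similar distances.

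**Figure D2:**
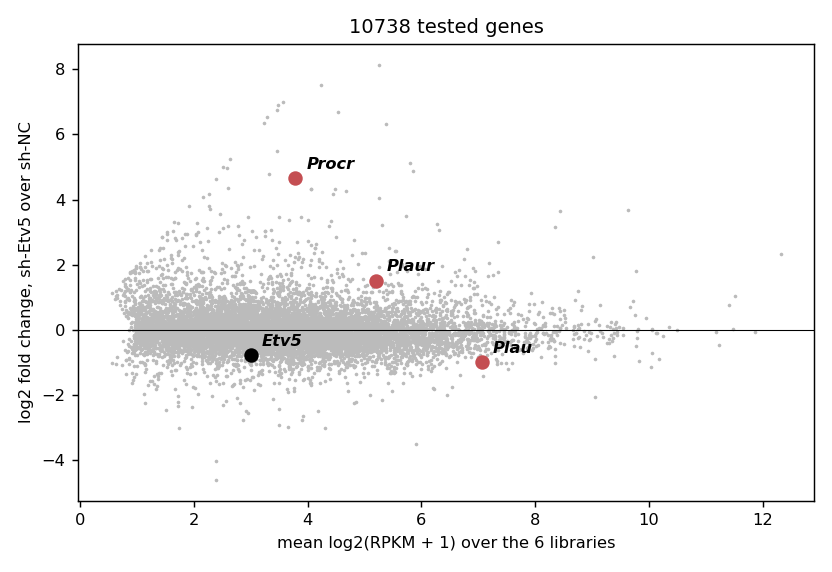
Log2 fold change of sh-*Etv5* over sh-NC against the mean log2(RPKM + 1) over the 6 libraries, one grey point for each of the 10738 tested genes. *Procr* (4.66) lies far above the main body of genes, *Plaur* (1.52) above it and *Plau* (-0.99) below it at a high mean level, with the knockdown target *Etv5* (-0.78) in black.

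The bases before the starts of *Plaur* and *Procr*, the members called higher with the filter, are shown. They were taken from RefSeq promoters on GRCm38.p6 on the plus strand and cut where an annotated exon of the gene begins. The capitals mark TGANTCA, the letters of the AP-1 motif, which each stretch holds as TGACTCA.
Plaur, chr7:24462233-24462482: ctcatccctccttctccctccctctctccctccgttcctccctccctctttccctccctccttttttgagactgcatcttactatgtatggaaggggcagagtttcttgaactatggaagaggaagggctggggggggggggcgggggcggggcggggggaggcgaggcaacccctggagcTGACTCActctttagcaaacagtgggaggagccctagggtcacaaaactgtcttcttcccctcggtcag
Procr, chr2:155750967-155751116: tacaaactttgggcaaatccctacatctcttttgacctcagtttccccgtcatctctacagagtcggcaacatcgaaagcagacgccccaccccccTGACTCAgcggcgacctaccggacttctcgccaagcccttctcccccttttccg

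The match began 69 bases before the RefSeq start in *Plaur* and 154 bases before it in *Procr*. The RefSeq start of *Procr* lies past the end of its printed stretch, which was cut at the annotated exon. Its match is therefore closer to that exon than to the RefSeq start. Of the 9 members, 6 matched the promoter table. *Plau*, *Thbs1* and *Thbd* had no entry, so the promoter of the only tested member called lower was not searched. Of the 6, 4 held TGANTCA within 250 bases before the start. The same letters were found in 6.75% of all 32851 promoters of that length. That share counts single promoters, whereas a member with several starts was counted once. The part of this motif in the rise of *Plaur* and *Procr* was not tested. The other pair of members with the motif, *F3* and *Serpinb2*, was close to 0 RPKM in both groups, and their sites are shown for comparison with 30 bases each, in which *F3* holds the letters at 2 positions.
F3, chr3:121723385-121723414: cgctgtTGAATCAcggtTGAGTCAcccctt
Serpinb2, chr1:107511317-107511346: tgagtaaaatgtTGAATCAtacaaagaata

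The core letters of ETS factors, GGAA, were read on both strands and occurred in the promoters of all 6 members, as in 93.4% of all promoters. Of the longer ETS letters that contain this core, CCGGAAGT was found in 0 of the 6 (2.88% of all promoters) and AGGAAGT in *Tfpi* alone (7.69%). Neither the CRE motif TGACGTCA (1.55%) nor the kappa-B letters GGG and TTTCC with any 2 bases between them (1.41%) matched in the 6 members. TATAAA was found in *Serpinb2* and *Tfpi* (12.4%). A match is a run of letters and does not show that a factor was bound.

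The remaining 6 members were below the filter and were fitted only without it, over the genes above 0 RPKM in at least 1 library. In that fit, 11.9% of the 7093 genes below the filter were called higher at a limma adjusted p-value under 0.05, and the libraries lay wholly higher with sh-*Etv5* in 16.7% of them. Of the 6 members, *Tfpi* and *Serpinb2* were called higher and their libraries did not overlap. The other 4 were not called. At levels of a few hundredths of an RPKM, the deposited values do not say how many reads lie behind them, and the part of the larger number of genes above 0 RPKM in the sh-*Etv5* libraries in these calls was not tested.

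*Tfpi* (chromosome 2, 84432855 to 84476775, minus strand) encodes the inhibitor of the tissue factor and factor VII complex. The values were 0.0256, 0.0383 and 0.0111 RPKM with sh-NC and 0.238, 0.613 and 0.356 RPKM with sh-*Etv5*. All sh-*Etv5* values were higher, although they spread more than 2-fold among themselves. Fitted without the filter, it differed by 0.44 on the log2 scale (SE 0.0971, limma adjusted p = 0.0130), and without sh-NC replicate 3 the limma adjusted p was 0.0526. *Serpinb2* (chromosome 1, 107511423 to 107535478, plus strand), which encodes the urokinase inhibitor PAI-2, was at 0.0470, 0 and 0 RPKM with sh-NC and at 0.0770, 0.0886 and 0.0788 RPKM with sh-*Etv5*. The difference was 0.09 on the log2 scale (SE 0.0204, limma adjusted p = 0.0144). This call was lost with quantile normalization (limma adjusted p = 0.111) and without sh-NC replicate 2 (0.0507), sh-NC replicate 3 (0.0518) or sh-*Etv5* replicate 2 (0.0556). Of the 50-base sequences of *Serpinb2* transcripts, 10.4% also occur in *Serpinb10*, which overlaps it on the same strand and was at most 0.0299 RPKM.

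*F3* (chromosome 3, 121723537 to 121735048, plus strand), which encodes tissue factor, was listed at 0, 0.0257 and 0.0258 RPKM with sh-NC and at 0.139, 0 and 0.0286 RPKM with sh-*Etv5*. The groups overlapped, and without the filter the log2 fold change had a 95% confidence interval of -0.08 to 0.18 (limma adjusted p = 0.460). *F10* (chromosome 8, 13037308 to 13056676, plus strand), the zymogen of the protease that makes thrombin, was at 0.125, 0.179 and 0.0542 RPKM with sh-NC and at 0.0587, 0.0332 and 0.0595 RPKM with sh-*Etv5*. It was not called (95% confidence interval -0.20 to 0.02, limma adjusted p = 0.141), but without sh-NC replicate 3, its lowest sh-NC library, the limma adjusted p was 0.0182. No difference was detectable for either gene at these levels with all libraries.

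*Thbd* (chromosome 2, 148404466 to 148408188, minus strand), which encodes thrombomodulin, the partner of *Procr* in protein C activation, was at 0.0520, 0 and 0 RPKM with sh-NC and at 0.0993, 0.0367 and 0 RPKM with sh-*Etv5* (95% confidence interval of the log2 fold change -0.06 to 0.14, limma adjusted p = 0.491). *Thbs1* (chromosome 2, 118111876 to 118127133, plus strand), which encodes the matrix glycoprotein thrombospondin-1, was listed at 0 RPKM in 5 libraries and at 0.00927 RPKM in sh-*Etv5* replicate 3. Its limma adjusted p was 0.627, and its exons overlap *Gm29233* on the opposite strand. Neither gene reached 0.1 RPKM in any library.

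**Figure D3:**
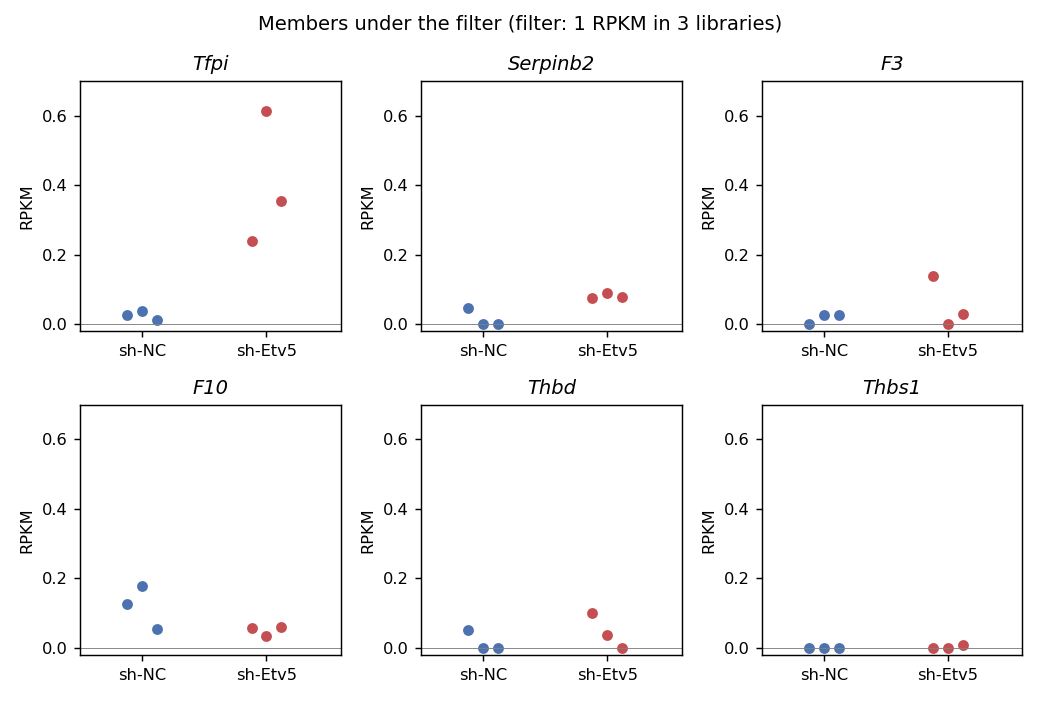
RPKM of the 6 members under the filter in the 3 sh-NC (blue) and 3 sh-*Etv5* (red) libraries, one point for each library, on the same linear axis in every panel. *Tfpi* reaches 0.613 RPKM in a sh-*Etv5* library, and the other 5 genes stay at or below 0.179 RPKM.

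Wider lists were read to place the members in their pathways. The 5 lists hold 66 genes, of which 57 are not members, and 19 of these 57 passed the filter. In sh-*Etv5* libraries, 11 of the 19 were called higher and 3 lower, and the remaining 5 missed the threshold. The median difference of the 19 was 0.24 on the log2 scale, against -0.05 over all tested genes, of which 33.3% were called higher and 41.0% lower. *F2rl2* and *Cd36* passed the filter through the sh-*Etv5* libraries alone, so their direction was fixed by the filter. Without them, a choice made after seeing the data, 9 of 17 were higher and 3 lower, with a median of 0.24.

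Of the 17 genes read for plasminogen activation, 7 passed the filter, members included, and 3 of these rose while 2 fell, beside 33.3% and 41.0% of all tested genes. The plasminogen receptor genes *Plgrkt* (log2 fold change 0.52) and *Anxa2* (0.24) rose with *Plaur*, whereas *S100a10* (-0.05) and *Eno1* (0.06) were not called. *Lrp1*, an endocytic receptor that clears urokinase bound to its inhibitor, fell from 65.7 ± 1.99 to 45.9 ± 6.44 RPKM (SD, n = 3; log2 fold change -0.52, limma adjusted p = 0.000124). Plasminogen itself (*Plg*) was listed at 0 RPKM in all 6 libraries, and the other activator, *Plat*, did not exceed 0.0760 RPKM.

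Of the 21 genes of the procoagulant list, the 15 that failed the filter include every coagulation factor, *F2* to *F13b*, and the fibrinogen chains, and none of the 15 was above 0.824 RPKM. The 6 that passed serve the making of coagulation factors and other proteins. *Mcfd2* (log2 fold change 1.07) and *Lman1* (0.24), whose products together carry factors V and VIII out of the endoplasmic reticulum, rose, as did the protein disulfide isomerase gene *P4hb* (0.92) and the vitamin K-dependent carboxylase gene *Ggcx* (0.48). *Mcfd2* went from 10.6 ± 0.820 to 23.3 ± 0.672 RPKM and *P4hb* from 303 ± 2.33 to 573 ± 8.98 RPKM (SD, n = 3). *Vkorc1* (0.09) and *Vkorc1l1* (0.12), the vitamin K reductases, were not called. The exons of *Vkorc1* overlap *Gm21974* on the same strand.

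Of the 12 anticoagulant genes, 3 passed the filter and these 3 rose, too few to read against the 33.3% of all tested genes called higher. Besides *Procr*, these were *Pros1*, which encodes the cofactor protein S (12.7 ± 0.807 to 17.2 ± 0.521 RPKM, log2 fold change 0.41), and *Anxa5*, which encodes a phospholipid-binding annexin (282 ± 3.31 to 425 ± 11.6 RPKM, log2 fold change 0.59; SD, n = 3). The limma adjusted p-values were 3.57e-05 for *Pros1* and 2.51e-08 for *Anxa5*. The ligand of the *Procr* product, protein C (*Proc*), was listed at 0 RPKM in all 6 libraries. Among the 4 protease-activated receptors, through which thrombin and other proteases signal, *F2rl2* was at 0.0981, 0.0392 and 0 RPKM with sh-NC and at 1.14, 1.62 and 1.74 RPKM with sh-*Etv5*. It passed the filter through the sh-*Etv5* libraries alone, so a difference was built into its selection. *F2r* and *F2rl1* were listed at 0 RPKM throughout.

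In the list of thrombospondins and receptors, none of the 5 genes for thrombospondins (*Thbs1* to *Thbs4* and *Comp*) passed the filter. The receptors of thrombospondin-1 *Cd47* (log2 fold change 1.17) and *Cd36* (3.70) rose. *Cd47* was at 22.0, 21.6 and 22.9 RPKM with sh-NC and at 51.2, 49.4 and 52.3 RPKM with sh-*Etv5*. *Cd36*, also a fatty acid transporter, passed the filter only through the sh-*Etv5* libraries. *Lrp5* (-0.55), best known as a Wnt co-receptor, and *Scarb2* (-0.63), a protein of the lysosomal membrane, fell. The integrin gene *Itgav* (-0.11) was not called and overlaps a gene on the opposite strand, as does *Anxa2*. With libraries rescaled to the same RPKM sum, *S100a10* and *Itgav* were called lower, and with quantile normalization *Eno1* and *Vkorc1* were called higher. *Eno1* was also called higher without sh-*Etv5* replicate 2, and *S100a10* was also called lower without sh-*Etv5* replicate 3.

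**Figure D4:**
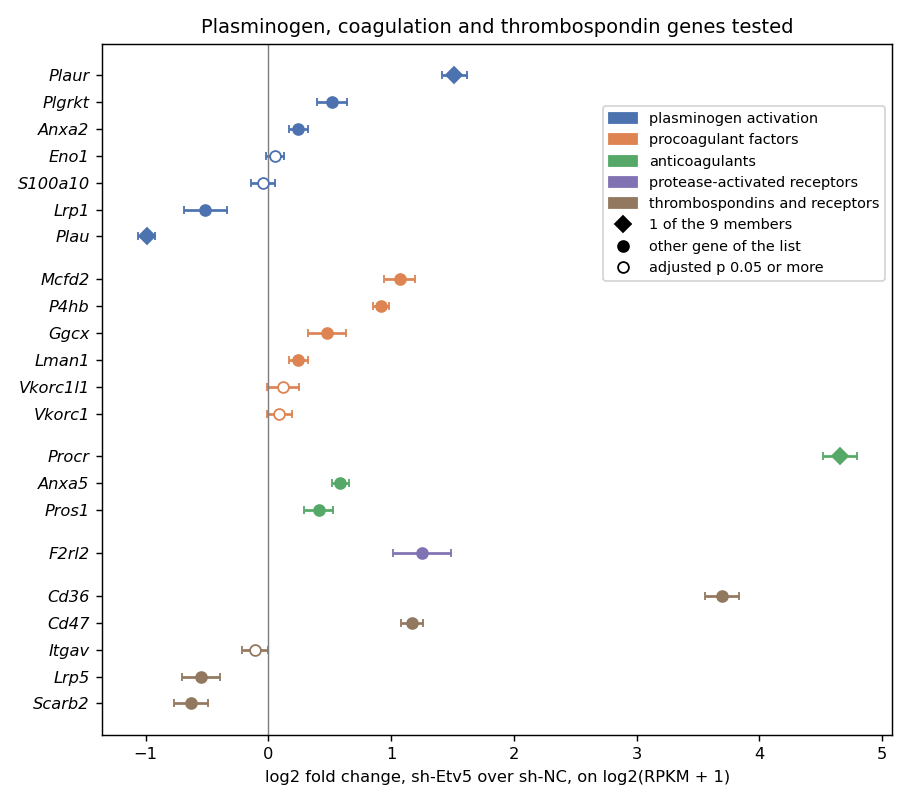
Log2 fold change of sh-*Etv5* over sh-NC on log2(RPKM + 1) with its limma 95% confidence interval (bars) for the 22 tested genes of the 5 lists, colored by list. Diamonds are members, open circles are genes that were not called, and *Procr* (4.66) and *Cd36* (3.70) lie farthest to the right while *Plau* (-0.99) lies farthest to the left.

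Several of these genes are typical of cells other than macrophages, so markers of other cell types were read beside them. The summed level of 9 endothelial markers, the cells in which *Procr* and *Thbd* are best known, was 1.90 to 2.52 RPKM with sh-NC and 2.23 to 2.36 RPKM with sh-*Etv5*, with *Egfl7* the highest at up to 1.496 RPKM in a sh-NC library. Of these 9, *Pecam1*, *Cdh5* and *Kdr* had all sh-*Etv5* libraries above all sh-NC libraries. These genes were below the filter, where the same held for 16.7% of the 7093 genes. *Egfl7* and *Tie1* had all sh-*Etv5* libraries below all sh-NC libraries. *Egfl7* passed the filter and was called lower, as were 41.0% of all tested genes. It passed through its sh-NC libraries alone, so a difference was built into its selection. *Tie1* was below the filter, where no share of genes with all sh-*Etv5* libraries below was computed. *Pecam1* did not exceed 0.759 RPKM, *Cdh5* 0.447 RPKM and *Kdr* 0.0385 RPKM in any library. The 8 platelet and megakaryocyte markers summed to 0.248 to 0.645 RPKM with sh-NC and to 1.12 to 1.87 RPKM with sh-*Etv5*, led by *Pf4* at up to 1.19 RPKM, and the 8 fibroblast markers summed to 0.0326 to 0.0789 and 0.838 to 1.11 RPKM, led by *Lum*, which was listed at 0 RPKM in every sh-NC library. The 8 hepatocyte markers summed to 4.03 to 4.42 and 3.82 to 4.59 RPKM, nearly all from *Apoa2*, with *Apoa1* at 0 RPKM throughout and *Alb* at 0 RPKM in every sh-NC library. The 8 neutrophil markers summed to 0.289 to 0.671 and 15.6 to 19.9 RPKM, nearly all from *S100a8*, while *S100a9*, *Elane* and *Retnlg* were at 0 RPKM throughout. The part of these other cell types in the changes of the members was not tested.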

How the data were processed

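RNA of 3 sh-NC and 3 sh-*Etv5* libraries of Raw264.7 cells was analyzed, with groups taken from the sample titles. The authors deposited RPKM values, 1 per gene symbol and library, without log transformation and, per the file headers, made from coverage tracks. Libraries were made with an Illumina TruSeq kit. The submitters' processing notes name mm10, and the aligner, the annotation and the use of strand are not given in the sources used here. RPKM is scaled by the total of mapped reads, so a few abundant genes that change shift all others.

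Genes with at least 1 RPKM in at least 3 libraries were tested with limma 3.58.1 (R 4.3.3) on log2(RPKM + 1), with an intensity trend, no covariate, 2 sides and Benjamini-Hochberg adjustment over all genes tested. Adjusted p-values under 0.05 were called. The smallest 2-sided p that an exact permutation of 3 and 3 libraries allows is 0.1, and it was reached by *Plau*, *Plaur*, *Procr*, *Tfpi* and *Serpinb2*. The fit was tested on simulated data. Coordinates, exon overlaps and shared 50-base sequences came from GENCODE M21 (GRCm38), in which 97.9% of the symbols were found, through Python 3.11.15. No expression column was left out.

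The members and lists were chosen with earlier results of these data known. All members were named, with every gene of the lists that passed the filter except 1 item that is not reported here and was left out of the list counts, *Etv5*, the most similar profiles, and the highest genes of the marker lists. *Mertk*, *Csf1r*, *Cd68*, *Fcgr1*, *Itgam*, *Adgre1*, *Spi1*, *Alb*, *Apoa1*, *Pecam1*, *Cdh5*, *Kdr*, *Tie1*, *S100a9*, *Elane*, *Retnlg*, *Plg*, *Plat*, *Proc*, *F2r* and *F2rl1* were named after their values were seen. Results were recomputed with pseudocounts 0.1 or 0.01, without the filter or with a mean of 5 RPKM as its minimum, after rescaling to the same sum or quantile normalization, without the trend, with a replicate block, with any single library left out, and with an absolute log2 fold change above 1 as a further condition.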

Additional observations from a re-analysis of the deposited data

How the results depend on the processing

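The directions and calls of *Plau*, *Plaur* and *Procr* were the same in all 14 alternatives. The log2 fold change ranged from -1.05 to -0.98 for *Plau*, from 1.46 to 1.56 for *Plaur* and from 4.59 to 5.28 for *Procr*, the highest with a pseudocount of 0.01. Without the filter, 4 members in place of 2 were called higher, because *Tfpi* and *Serpinb2* were then tested. With an absolute log2 fold change above 1 in addition, 0 members in place of 1 were called lower, since *Plau* lies just inside 1, and over all genes 669 in place of 3575 were higher and 322 in place of 4399 were lower. The replicate numbers did not pair the libraries, as same-numbered libraries had correlated deviations of 0.0739, -0.0710 and -0.0352. With the number as a replicate block, 3539 genes were higher and 4361 lower, and no call of a member changed. For members near 0 RPKM the log2 fold change depends on the pseudocount, and that of *Tfpi* went from 0.44 to 1.94 with 0.1 and to 3.54 with 0.01. Read depth is unknown, which limits every value under 1 RPKM.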
